A study of Oreochromis mossambicus with 12 samples.

Results

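The lymphocyte chemokine receptor genes ccr7, cxcr4 and cxcr5 and the B cell genes btk and swap70 were followed in tilapia head-kidney leukocytes, the white blood cells of an organ in which bony fish make blood. The members were the rows of the expression table whose trimmed gene symbol was 1 of these 5 names, and all 5 were found among 28921 symbols. Transcripts were summed per symbol, which joined 7 rows for cxcr5 and 4 for btk. All 5 genes were among the 12423 that reached a mean of 1 FPKM (fragments counted per kilobase of transcript and scaled to library size) over the libraries and entered the tests.

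The cells were labelled Oreochromis mossambicus and had been kept overnight as primary cultures on collagen-coated plastic, in medium with tilapia serum and antibiotics. They then received PBS, Streptococcus agalactiae killed by heat (multiplicity of infection 1), sodium nitrite at 1000 μM, or bacteria and nitrite together at those doses, here called co-treatment. RNA was taken after 12 h, from 3 libraries in each of the 4 groups and 12 in all. The labels do not say whether these came from separate fish or cultures, so the p-values measure the spread between libraries, which may be technical.

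Chemokine receptors are G protein-coupled receptors that steer leukocytes along gradients of small secreted proteins. In mammals CCR7 answers CCL19 and CCL21 and leads naive T cells and maturing dendritic cells into lymph nodes, CXCR5 answers CXCL13 and leads B cells into follicles, and CXCR4 answers CXCL12 and holds many kinds of leukocytes and blood progenitors in the bone marrow. BTK is a Tec family kinase that passes the B cell receptor signal on to phospholipase C gamma, and mammalian myeloid cells carry it too. SWAP-70 binds actin filaments and the small GTPase Rac and is known from B cells of the mouse. Fish have no lymph nodes, and the head kidney is a site where their B cells develop.

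The libraries carried large differences that the 4 treatments do not describe. Libraries that share a replicate number resembled each other across groups, and values are therefore given by number. PBS replicate 1 stood apart, with a correlation of 0.81 and 0.85 across genes with the other PBS libraries, and 4.94% of its FPKM came from ribosomal protein genes, where the other PBS libraries had 17.3% and 16.2%. That share also moved with the bacteria, at 8.93% to 12.2% with bacteria and 9.36% to 12.99% with co-treatment against 15.8% to 16.9% with nitrite, and its part in the results was not tested. FPKM sums ran from 422129 to 503740. The table holds no counts, so depth is unknown in absolute terms; steps among low values put the deepest library at about 1.43 times the shallowest. With bacteria the median gene changed by -0.29 on the log2 scale, and by 0.04 after median-ratio scaling, a correction for uneven composition.

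The B cell part of the label was checked against markers other than the described genes. Both signalling chains of the B cell receptor, cd79a and cd79b, and the B cell identity factor pax5 were detected but low, at means of 3.39, 4.40 and 1.07 FPKM over the libraries, and the other 5 of the 10 B cell markers were not analysed here. btk, at 65.8 FPKM, was far above cd79a, cd79b and pax5, and swap70 was at 19.5 FPKM. Which cells carried btk and swap70 was not tested. The T cell markers cd3e, cd247, lck and itk had means of 1.05 to 4.36 FPKM. These are bulk libraries, in which fewer cells of a type and less RNA per cell cannot be told apart.

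**Figure D1:**
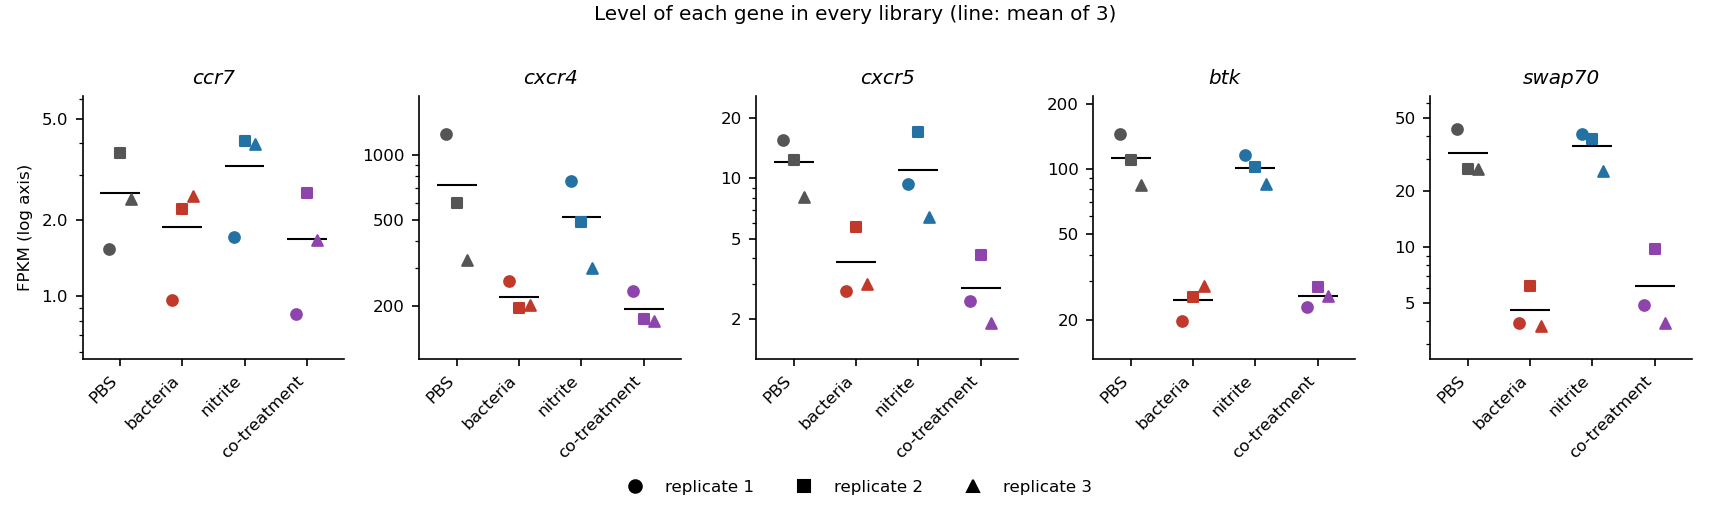
Level of each gene in FPKM (log axis) in the 12 libraries, by group; symbols mark the replicate number and lines the mean of 3 libraries. In the groups with bacteria, btk lies between 19.7 and 28.5 FPKM and swap70 between 3.75 and 9.76. In the groups without bacteria, btk lies between 83.8 and 144.2 FPKM and swap70 between 25.9 and 43.5. For 34.6% of all genes every bacteria library lay below every PBS library.

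The first comparison set bacteria alone against PBS. Of the 5 genes, btk, swap70, cxcr4 and cxcr5 fell and ccr7 did not pass the test. Among all genes tested 26.3% fell and 10.7% rose in the same fit, so falls were common. That balance depended on scaling, since 29.0% of called genes were higher as deposited, 57.6% with median-ratio scaling and 48.0% with quantile normalization. For the same 4 genes no bacteria library reached the level of any PBS library, which held for 34.6% of all genes in this direction.

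cxcr4 was the most abundant of the 5. Its mean over the libraries of 413 FPKM put it at the 98.5th percentile of tested genes. PBS replicates 1 to 3 had 1242, 600.4 and 326.8 FPKM, and the bacteria libraries had 261.0, 197.6 and 202.1. The PBS libraries were far from each other while the bacteria libraries lay close together, so the size of the fall differed with the PBS library it was measured from.

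On the log2 scale cxcr4 fell by 1.51 ± 0.45 (SE), a 2.85-fold lower level (adjusted p = 0.0227 in limma's test with Benjamini-Hochberg adjustment). Within replicate numbers 1, 2 and 3 the log2 changes were -2.25, -1.60 and -0.69, so all 3 pairs were lower. The call was lost when PBS replicate 1 (-1.02, adjusted p = 0.0548), bacteria replicate 2 (adjusted p = 0.0674) or bacteria replicate 3 (adjusted p = 0.0610) was left out, and with median-ratio scaling (-1.11, adjusted p = 0.111). With the replicate number as a block the adjusted p was 0.00192. Zebrafish carry duplicate cxcr4 genes. The table pairs 1 transcript with this symbol, and reads shared with a second copy could not be told apart here.

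cxcr5 had 7 transcripts in the table, of which 6 were listed at 0 in every library, so that 1 transcript gave all of its signal. It measured 15.6, 12.4 and 8.09 FPKM in PBS replicates 1 to 3 and 2.74, 5.76 and 2.98 in the bacteria libraries. The highest bacteria library, replicate 2, stayed under the lowest PBS library, replicate 3.

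The log2 change of cxcr5 was -1.44 ± 0.38 (SE), from 12.0 ± 3.77 to 3.83 ± 1.68 FPKM (SD, n = 3 each), with an adjusted p of 0.0124 in limma's test. Within the numbers it was -2.15, -0.98 and -1.19. The call was lost when bacteria replicate 1 was left out (-1.28, adjusted p = 0.0518) or when libraries were quantile normalized (-1.10, adjusted p = 0.0652).

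ccr7 was the lowest of the 5, at 0.85 to 4.09 FPKM. PBS replicates 1 to 3 had 1.54, 3.67 and 2.42 FPKM and the bacteria libraries 0.97, 2.20 and 2.47, so the groups overlapped. Its log2 change of -0.30 ± 0.35 (SE) did not pass (adjusted p = 0.545), and the 95% interval ran from -1.08 to 0.48. The change was 0.07 after quantile normalization. At this level the added pseudocount of 1 takes up much of a change, so the log2 values understate it.

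btk fell in every bacteria library. PBS replicates 1 to 3 had 144.2, 109.0 and 83.8 FPKM, and the bacteria libraries had 19.7, 25.4 and 28.5. The 2 groups were far apart, and replicate 1 was the highest PBS library and the lowest bacteria library.

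The fall in btk was 2.13 ± 0.22 on the log2 scale (SE), a 4.38-fold lower level (adjusted p = 6.81e-05 in limma's test), and 1.52 to 2.81 within the replicate numbers (log2 changes of -2.81, -2.06 and -1.52). Of its 4 transcripts 1 gave 81.8% of the FPKM. That transcript's share was 82.9 ± 1.88% with PBS and 79.6 ± 3.50% with bacteria (SD, n = 3 each), a difference smaller than the larger SD. The transcript of lowest abundance was listed at 0 in 5 libraries.

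swap70 had the largest fall of the 5 in this comparison. PBS replicates 1 to 3 had 43.5, 26.5 and 26.5 FPKM, and the bacteria libraries had 3.90, 6.15 and 3.75. Its log2 change was -2.55 ± 0.32 (SE), a 5.87-fold lower level, with an adjusted p of 0.000239 in limma's test, and within the numbers it was -3.18, -1.94 and -2.53.

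The calls of btk and swap70 held under all 21 alternatives computed for each. After median-ratio scaling, which moved the median gene to 0.04, the changes were -1.74 for btk and -2.19 for swap70, and that of cxcr5 was -1.10 (adjusted p = 0.0437). Without PBS replicate 1 they were -1.93 and -2.32.

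**Figure D2:**
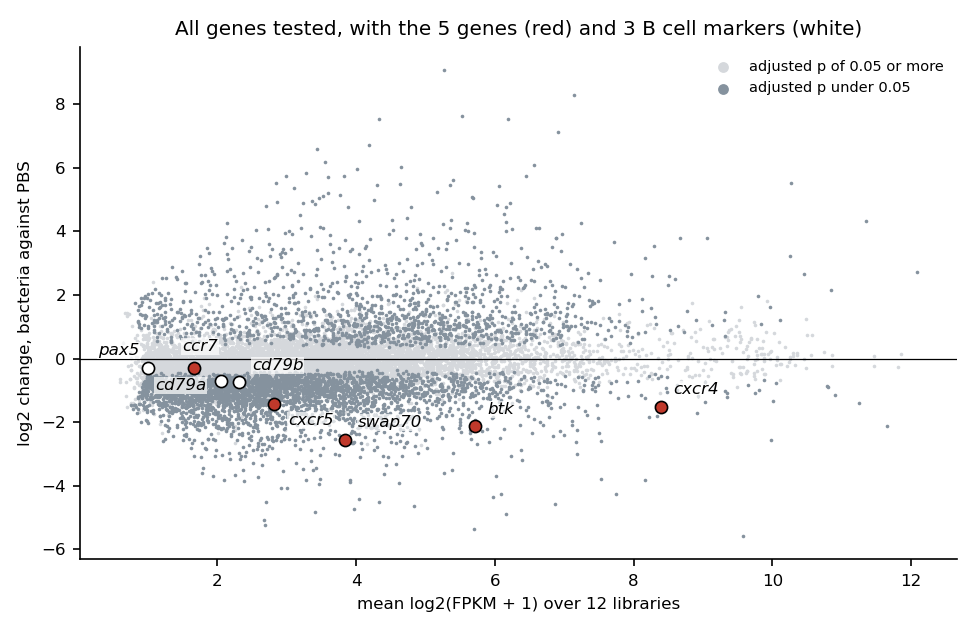
Log2 change with bacteria against PBS (y axis) over the mean log2(FPKM + 1) of 12 libraries (x axis) for the 12423 genes tested. btk at -2.13 and swap70 at -2.55 lie in the lower cloud of called genes, while ccr7 at -0.30 and the B cell markers cd79a, cd79b and pax5 (white) lie among genes that did not pass.

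The B cell markers cd79a, cd79b and pax5 did not pass in this comparison. cd79a measured 7.64, 4.64 and 2.39 FPKM in PBS replicates 1 to 3 and 1.58, 2.65 and 2.96 with bacteria, and its log2 change was -0.72 ± 0.34 (SE; adjusted p = 0.119 in limma's test). cd79b changed by -0.75 ± 0.42 (adjusted p = 0.185) and pax5 by -0.29 ± 0.30 (adjusted p = 0.491). By group mean cd79a went from 4.89 to 2.40 FPKM, cd79b from 6.39 to 3.07 and pax5 from 1.22 to 0.85. At such levels the added pseudocount of 1 takes up much of a change, so the log2 values understate it. Both cd79 changes moved with the number. In number 1 cd79a was at -1.74 and cd79b at -1.97, and in number 3 they were at 0.22 and -0.29.

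Markers of other cell types moved with btk, swap70, cxcr4 and cxcr5. The summed level of 3 of 8 macrophage markers was 196.7 to 342.9 FPKM with PBS and 105.0 to 156.6 with bacteria, with mrc1 at or near 0. Most of that sum came from marco. By group mean marco went from 229 FPKM with PBS to 128 with bacteria, and csf1r from 49.6 to 2.37. The eosinophil gene epx, the only marker on its list, went from 4714 to 6764 FPKM with PBS to 101.6 to 174.8 with bacteria. granzyme, 1 of 5 markers of cytotoxic cells, had 623.4 to 1957 FPKM with PBS and 21.7 to 105.9 with bacteria. The sum of 4 of 6 thrombocyte markers was 65.2 to 148.3 and 20.9 to 53.6 FPKM, with f13a1 listed at 0. That of 5 of 6 progenitor markers was 232.0 to 337.9 and 61.9 to 79.7 FPKM.

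The sums of 3 further lists were also lower with bacteria, although those of the B cell and erythroid lists overlapped between the groups. The 3 B cell markers summed to 6.62 to 20.3 FPKM with PBS and 4.35 to 8.56 with bacteria, and the 4 of 12 T cell markers to 8.34 to 13.5 and 6.21 to 8.05. Among the T cell markers, group means went from 5.21 to 3.48 FPKM for cd247, 1.70 to 0.69 for cd3e and 1.71 to 1.09 for itk. The mean of lck went the other way, from 1.83 to 1.98 FPKM. The erythroid gene gata1, 1 of 6 markers on its list, was at 0.22 to 0.55 and 0.16 to 0.23 FPKM. None of the 3 B cell and 4 T cell markers passed singly, and gata1 was too low to be tested. For 4 of 7 dendritic cell markers, ccr7 left out, the sum was 27.7 to 36.5 FPKM with PBS and 383.1 to 462.1 with bacteria, and cd83 gave most of it. By group mean zbtb46 went from 1.64 to 4.60 FPKM, lamp3 from 0.79 to 0.83 and batf3 from 0.063 to 0.033. For 3 of 8 neutrophil markers it was 522.0 to 679.3 and 659.5 to 1263, and these ranges overlapped. By group mean mmp9 went from 208 to 478 FPKM and ncf1 from 192 to 310, while csf3r went from 177 to 147. With nitrite and with co-treatment the macrophage sum was 191.1 to 384.3 and 114.8 to 160.1 FPKM, and the B cell sum 5.66 to 11.7 and 5.06 to 10.9. The part of cell makeup in the changes of the described genes was not tested.

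**Figure D3:**
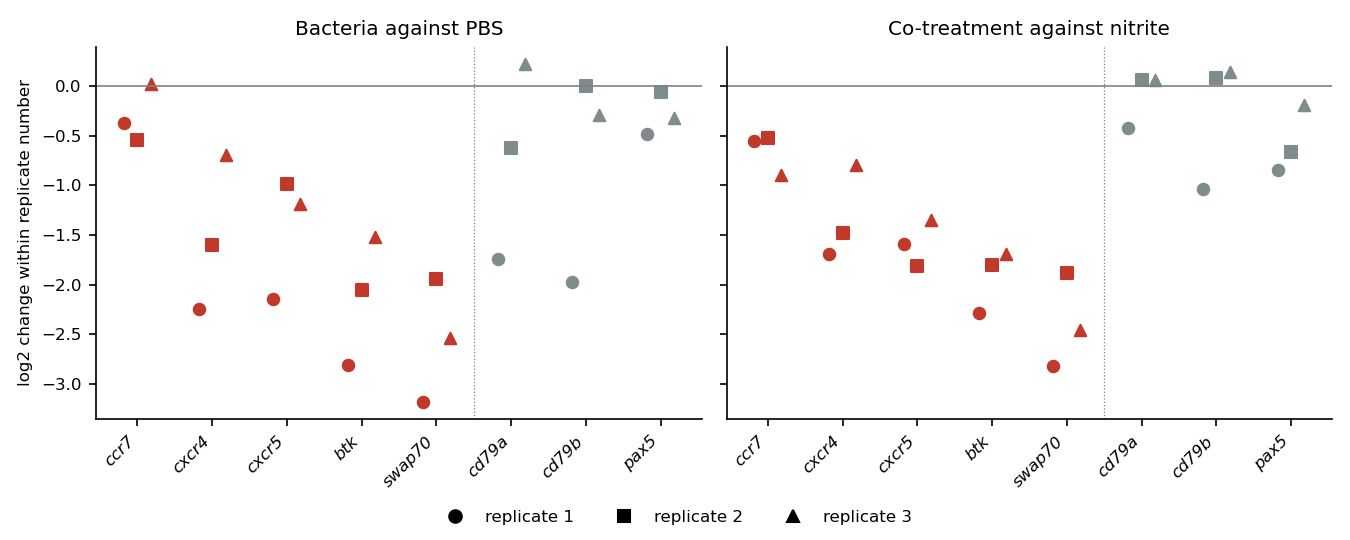
Log2 change of FPKM + 1 with bacteria within each replicate number (symbols), without nitrite (left) and with nitrite (right), for the described genes (red) and 3 B cell markers (grey). btk and swap70 are at -1.52 or lower in all 6 pairs, while cd79a and cd79b lie between 0.06 and 0.14 in numbers 2 and 3 and at -0.42 and -1.03 in number 1 with nitrite present.

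The second comparison set nitrite alone against PBS, and none of the 5 genes passed. Limma called 0% of all 12423 genes, and 0.596% had an unadjusted p under 0.05. This fit has no replicate block, so differences between replicate numbers stay in its error and can lower such shares. A low share is therefore not a sign that nitrite had no effect. With the block 0 genes were called. The nitrite libraries had 115.6, 101.3 and 85.0 FPKM of btk, 40.6, 38.6 and 25.9 of swap70, 757.4, 488.3 and 299.7 of cxcr4, 9.40, 17.1 and 6.40 of cxcr5, and 1.71, 4.09 and 3.98 of ccr7, in the order of their numbers. Each of these ranges overlapped that of PBS.

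The log2 changes with nitrite were -0.13 for btk (95% interval -0.62 to 0.35), 0.13 for swap70 (-0.58 to 0.85), -0.38 for cxcr4 (-1.37 to 0.61), -0.18 for cxcr5 (-1.005 to 0.65) and 0.25 for ccr7 (-0.53 to 1.03), each with an adjusted p of 1 in limma's test. For btk the interval left room for a fold between 0.650 and 1.28, and for cxcr4 between 0.387 and 1.53. These intervals are from the fit without the replicate block and also carry the differences between replicate numbers. The SE of cxcr4 was 0.450 without and 0.281 with the block, and that of btk 0.221 and 0.220. Without PBS replicate 1 the log2 changes were 0.06 for btk, 0.12 for cxcr4 and 0.02 for cxcr5. cxcr4 was lower with nitrite in all 3 replicate numbers (-0.71, -0.30 and -0.12) and ccr7 was higher in all 3 (0.09, 0.12 and 0.54). Neither passed with the replicate block (adjusted p = 0.677 and 0.675).

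The third comparison set co-treatment against nitrite alone, with libraries other than those set against each other in the first comparison. It was not an independent repeat. All libraries entered the same fit, so both comparisons shared its variance estimate. Libraries of the same replicate number also resembled each other across groups. The same 4 genes fell, where 23.3% of all genes did, and for all 4 every co-treatment library was below every nitrite library, as for 38.9% of all genes. btk had 22.9, 28.4 and 25.6 FPKM with co-treatment, a log2 change of -1.93 ± 0.22 (SE; adjusted p = 0.000134 in limma's test). swap70 had 4.88, 9.76 and 3.91 FPKM, a log2 change of -2.39 ± 0.32 (adjusted p = 0.000374). Within each number both genes were lower, by log2 changes of -2.28, -1.80 and -1.69 for btk and -2.82, -1.88 and -2.45 for swap70.

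cxcr5 had 2.46, 4.15 and 1.90 FPKM with co-treatment. Its log2 change was -1.58 ± 0.38 (adjusted p = 0.00849), and the within-number changes of -1.59, -1.81 and -1.35 lay closer together than those against PBS. cxcr4 had 234.6, 174.3 and 172.0 FPKM, a log2 change of -1.32 ± 0.45 (adjusted p = 0.0423 in limma's test; -1.69, -1.48 and -0.80 within the numbers). This call was made in 9 of 21 alternatives, with adjusted p from 0.00397 to 0.175. It was lost when any 1 of PBS replicate 2, bacteria replicates 1 to 3, nitrite replicates 1 and 2 or the 3 co-treatment libraries was left out, without the filter on low genes (adjusted p = 0.0794), with the highest transcript per symbol (adjusted p = 0.0503) and with median-ratio scaling (-0.95). Without nitrite replicate 1 the change was -0.99.

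ccr7 measured 0.85, 2.54 and 1.67 FPKM with co-treatment, against 1.71, 4.09 and 3.98 with nitrite. Its log2 change of -0.66 ± 0.35 (SE) did not pass (adjusted p = 0.173). It was lower in all 3 numbers (-0.55, -0.52 and -0.90), and with the replicate block it passed (adjusted p = 0.00576), as did 36.2% of all genes in that direction.

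Co-treatment was also set against PBS, which shares the PBS libraries with the first comparison and the co-treatment libraries with the last. In this comparison 27.7% of all genes fell, and btk (-2.06 ± 0.22), swap70 (-2.25 ± 0.32), cxcr4 (-1.70 ± 0.45) and cxcr5 (-1.76 ± 0.38) were among them (log2 change ± SE). Their adjusted p in limma's test was 8.10e-05, 0.000461, 0.0123 and 0.00415. cxcr4 was not called with median-ratio scaling (-1.30, adjusted p = 0.0636). The libraries of these 4 genes did not overlap, as for 34.6% of all genes. ccr7 was at -0.40 ± 0.35 (adjusted p = 0.395) and passed with the replicate block (adjusted p = 0.0453), under which 38.7% of all genes fell. That was the single alternative of 20 that called it, and with the block and median-ratio scaling together it was at -0.15 (adjusted p = 0.406).

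**Figure D4:**
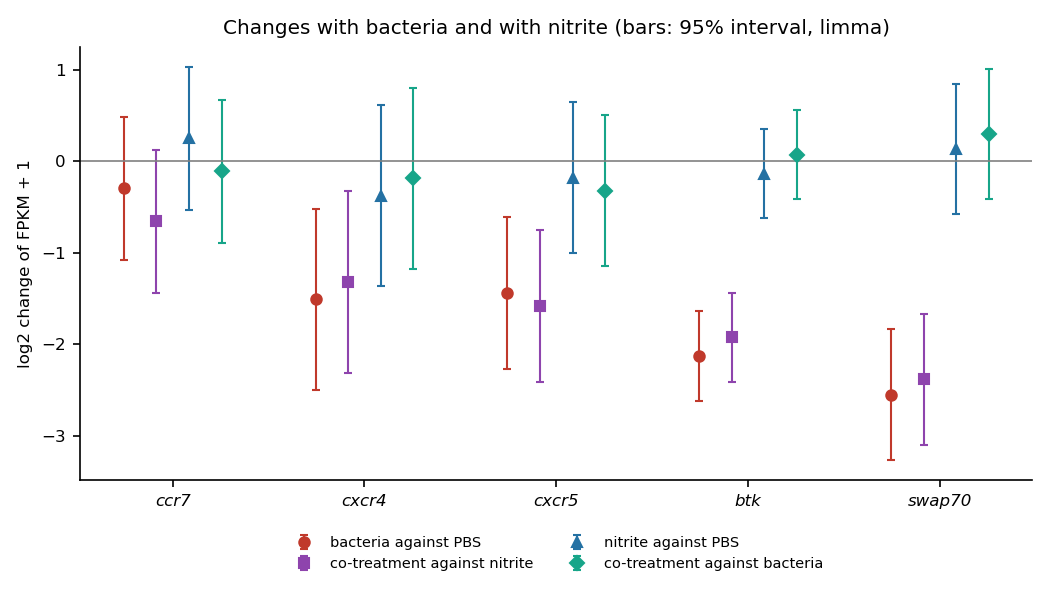
Log2 change of FPKM + 1 with its 95% interval from limma for each gene, with bacteria (without and with nitrite) and with nitrite (without and with bacteria). The intervals of btk, swap70, cxcr4 and cxcr5 lie below 0 in both comparisons with bacteria and include 0 in both comparisons with nitrite.

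The last comparisons asked whether nitrite altered the levels reached with bacteria. Co-treatment and bacteria libraries overlapped for all 5 genes, and none passed, against 0.00805% of all genes (1 gene) and 1.26% with an unadjusted p under 0.05. These shares too come from the fit without the block, whose error carries the differences between numbers. The log2 changes were 0.07 ± 0.22 for btk, 0.30 ± 0.32 for swap70, -0.19 ± 0.45 for cxcr4, -0.32 ± 0.38 for cxcr5 and -0.11 ± 0.35 for ccr7 (SE). The 95% intervals were -0.42 to 0.56 for btk and -0.41 to 1.01 for swap70. In the 3 numbers swap70 was higher each time (0.26, 0.59 and 0.05), and cxcr4 (-0.15, -0.18 and -0.23) and cxcr5 (-0.11, -0.39 and -0.46) were lower each time. None of these genes passed with the replicate block either.

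The interaction, which tests whether the change with bacteria differed with nitrite present, passed for none of the 5. Its values ran from -0.36 ± 0.50 for ccr7 to 0.20 ± 0.31 for btk (SE; adjusted p = 1.00 each in limma's test), with a 95% interval of -0.48 to 0.89 for btk. Of all genes 0.00805% passed (1 gene), and 0.402% had an unadjusted p under 0.05. The same limit of the fit without the block applies to these shares. The single gene in both tests, LOC100692258, was picked out after its values were seen. It was listed at 0 in all 3 co-treatment libraries and at 17476 to 20799 FPKM with bacteria, and a listed 0 can be a failed estimate.

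The order of the levels placed the groups without bacteria first for 4 genes. By mean, btk was at 112 ± 30.3 FPKM with PBS and 101 ± 15.3 with nitrite, then at 25.6 ± 2.72 with co-treatment and 24.6 ± 4.44 with bacteria (SD, n = 3 each). swap70 ran from nitrite (35.0 ± 7.98) and PBS (32.2 ± 9.83) down to co-treatment (6.18 ± 3.14) and bacteria (4.60 ± 1.34). cxcr4 ran from PBS (723 ± 470) and nitrite (515 ± 230) to bacteria (220 ± 35.4) and co-treatment (194 ± 35.5), and cxcr5 from PBS (12.0 ± 3.77) and nitrite (11.0 ± 5.51) to bacteria (3.83 ± 1.68) and co-treatment (2.84 ± 1.17). In each gene the first pair and the last pair of neighbours did not differ beyond their spread. ccr7 ran from nitrite (3.26 ± 1.34) over PBS (2.54 ± 1.07) and bacteria (1.88 ± 0.80) to co-treatment (1.69 ± 0.85), and no neighbours differed beyond their spread.

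The replicate number also separated the levels of some of these genes. A fit with the number as a block, examined after the values were seen, called differences between numbers for ccr7, cxcr4 and cxcr5, against 29.3% of all genes. For cxcr4, replicate 1 was the highest library in all 4 groups, and its mean deviation from the group was 0.55 on the log2 scale for number 1 and -0.47 for number 3 (adjusted p = 0.0300 in limma's F test). For ccr7, number 1 was the lowest in all 4 groups (mean deviation -0.51, adjusted p = 0.00320), the opposite direction. For cxcr5, number 2 was higher (0.45) and number 3 lower (-0.41, adjusted p = 0.0252).

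btk and swap70 showed no such call. The mean deviations of btk were 0.04, 0.06 and -0.10 (adjusted p = 0.753), and those of swap70 0.08, 0.24 and -0.33 (adjusted p = 0.155). What the numbers stand for is not given in the labels, and with 1 library for each number and group no test was made of whether a treatment change differed between numbers.

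Likeness to other genes was measured as the root mean square difference in log2(FPKM + 1) over the 12 libraries, after each gene was centred on its own mean, among 6764 other tested genes with a symbol that is not a LOC identifier. All 12 libraries share the treatments and the replicate numbers, so the values are a description. btk was nearest to runx3, a transcription factor of T and cytotoxic cells (0.138), the calpastatin gene cast (0.157) and wipi1, an autophagy gene (0.172), against a median of 0.962 over all candidates. cxcr4 was nearest to pik3ip1, an inhibitor of PI 3-kinase (0.124), fbxo33 (0.128) and tbc1d8b (0.133). pik3ip1 had 27.9, 11.2 and 6.11 FPKM in PBS replicates 1 to 3 and 4.51, 3.55 and 3.91 with bacteria, and so had its highest library in the same place as cxcr4.

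cxcr5 was nearest to rab30 (0.203), plcd1, a phospholipase C (0.203), and rgs3 (0.227), which shortens signalling by G protein-coupled receptors. swap70 was nearest to emp1 (0.222), the phospholipid transfer protein gene pltp (0.261) and fam89a (0.309). ccr7 varied least of the 5 on the log2(FPKM + 1) scale. It was nearest to npepl1 (0.181), the histone deacetylase hdac3 (0.203) and the exonuclease exo1 (0.207). Among the 5 genes the closest pair was btk and swap70, at 0.376, and the farthest was ccr7 and swap70, at 1.14.

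The rest of the B cell receptor signalling genes moved in both directions. Of 23 other tested genes on a list of 34, 6 rose, 4 fell and 13 did not pass with bacteria, and the median log2 change was -0.19 against -0.29 for all genes. Of all genes 10.7% rose and 26.3% fell in that fit. vav1, an exchange factor for Rac, rose by 2.13 ± 0.24, the phosphatase gene ptpn6 by 1.58 ± 0.27, the adaptor gene pik3ap1 by 1.45 ± 0.21 and bcl10, which links antigen receptors to NF-kB, by 1.07 ± 0.20 on the log2 scale (SE). pik3cd, a catalytic subunit of PI 3-kinase, fell by 1.47 ± 0.22. Their adjusted p in limma's test ran from 0.000113 for vav1 to 0.00219 for bcl10, and these 5 calls held after median-ratio and quantile scaling and without PBS replicate 1.

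Partners nearest to the described genes were mixed. syk, the kinase just above btk in the pathway, was at -0.40 ± 0.20 (adjusted p = 0.137, and 0.0360 with quantile normalization) and plcg2, the phospholipase that BTK acts on, rose by 0.62 ± 0.20 (adjusted p = 0.0317), a call lost after quantile normalization and without PBS replicate 1. def6, the closest relative of swap70, had 39.4 to 45.7 FPKM with PBS and 41.5 to 54.1 with bacteria, a log2 change of 0.13 ± 0.16 that did not pass (adjusted p = 0.569) but was higher with median-ratio scaling (0.52, adjusted p = 0.0234). The other tested Tec family kinases were tec (-1.08 ± 0.41, adjusted p = 0.0608, and 0.00429 with the replicate block) and itk (-0.37 ± 0.21, adjusted p = 0.187). 1 of the pair passed when PBS replicate 3, bacteria replicate 2 or nitrite replicate 2 or 3 was left out. The same count was reached with the highest transcript per symbol, and with the replicate block and median-ratio scaling together. Of the signalling list 7 genes rose and 1 fell with median-ratio scaling, while the replicate block gave 6 that rose and 7 that fell. The shares of all genes were 17.7% and 13% with that scaling and 14.8% and 38.6% with the block.

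Among B cell factors and surface genes 2 of 17 tested rose and 3 fell with bacteria (list of 33), near the shares of all genes, and the median of -0.28 was near that of all genes. pou2f2, a transcription factor of B cells that is also called Oct-2, went from 0.47 to 1.00 FPKM with PBS to 26.7 to 28.0 with bacteria, a log2 change of 4.06 ± 0.17 (adjusted p = 1.34e-07 in limma's test), and it was at 19.6 to 22.9 FPKM with co-treatment. With means of 0.71 FPKM with PBS and 0.83 with nitrite, pou2f2 reached the mean minimum only through the groups with bacteria. foxo1 rose by 0.75 ± 0.15. rag1, the recombinase subunit that cuts antigen receptor genes in developing lymphocytes, fell from 1.68 to 4.94 FPKM to 0.46 to 0.97 (-1.27 ± 0.36, adjusted p = 0.0182). tnfsf13b, the B cell survival factor BAFF, fell by 1.08 ± 0.21 and the lymphoid factor ikzf1 by 0.73 ± 0.17. Neither of the last pair passed with median-ratio scaling (adjusted p = 0.0653 and 0.234), and rag1 did not pass after quantile normalization or without PBS replicate 1. In this list the replicate block gave 2 genes that rose and 5 that fell, and median-ratio scaling gave 2 and 1.

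Of other chemokine receptor genes on a list of 27, cmklr1 and ackr4 were found. cmklr1, the receptor for the chemoattractant chemerin, had 443.1, 137.8 and 129.8 FPKM with PBS and 61.0, 52.7 and 94.1 with bacteria. Its log2 change was -1.56 ± 0.53 (adjusted p = 0.0384 in limma's test). It did not pass when PBS replicate 1 (adjusted p = 0.110), bacteria replicate 1 or 2 or nitrite replicate 2 was left out, or with median-ratio scaling (adjusted p = 0.123). Of the 19 listed chemokine ligands il-8 alone was tested, and rose by 8.28 ± 0.67; the ligands that CCR7, CXCR4 and CXCR5 answer in mammals were not analysed here.

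Of 18 tested genes of the migration machinery (list of 49) 6 fell and 1 rose with bacteria, near the shares of all genes, and the median was -0.38 against -0.29 for all genes. gpr183, an oxysterol receptor that positions B cells in mammals, fell by 1.35 ± 0.24, from 69.1 to 137.1 FPKM to 33.1 to 35.1 (adjusted p = 0.00155). dock8, an exchange factor for Cdc42, fell by 0.97 ± 0.19, rapgef1 by 1.37 ± 0.38, the integrin gene itgb1 by 1.04 ± 0.32 and rac1 by 0.92 ± 0.28. s1pr1, whose product draws lymphocytes out of tissues, was the 1 gene that rose, by 1.78 ± 0.40 (adjusted p = 0.00598). It was listed at 0 in every PBS library and at 0.90 to 4.21 FPKM with bacteria. With nitrite it was at 0 to 0.14 FPKM and with co-treatment at 3.10 to 9.91. It thus reached the mean minimum only through the groups with bacteria, and its log2 size depends on the pseudocount. The direction of this list depended on scaling. With median-ratio scaling 2 fell, gpr183 and rapgef1, and 5 rose. The replicate block gave 10 that fell and 3 that rose, and 2 fell when PBS replicate 2 or bacteria replicate 1 was left out.

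T cells and dendritic cells are the cells known for CCR7 in mammals. With bacteria 10.7% of all genes rose and 26.3% fell. Of 8 tested T cell genes (list of 27) runx3 fell by 2.13 ± 0.24, tcf7 rose by 1.08 ± 0.19 and 6 did not pass. The mean of runx3 over the libraries was 27.4 FPKM, and those of the other tested T cell genes were 1.05 to 4.36. Which cells carried runx3 was not tested. No T cell gene rose when the highest transcript stood for each symbol. Of 7 tested dendritic cell genes other than ccr7 (list of 15), cd83 rose by 3.80 ± 0.21, relb by 1.15 ± 0.14 and zbtb46 by 1.08 ± 0.23, and fscn1, an actin-bundling gene of mature dendritic cells, fell by 1.96 ± 0.38 on the log2 scale (SE; adjusted p from 8.18e-07 for cd83 to 0.00475 for zbtb46 in limma's test). The other 3, cd74, irf4 and irf8, did not pass. By group mean cd74 went from 999 to 514 FPKM, irf4 from 2.34 to 1.13 and irf8 from 58.3 to 113. Of the listed genes too low to be tested, cd86 went from 1.43 to 0.17 FPKM, batf3 from 0.063 to 0.033 and lamp3 from 0.79 to 0.83. With the replicate block, under which 38.6% of all genes fell, a further dendritic cell gene fell, 2 in all. The 6 calls named here held with both scalings and without PBS replicate 1.

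**Figure D5:**
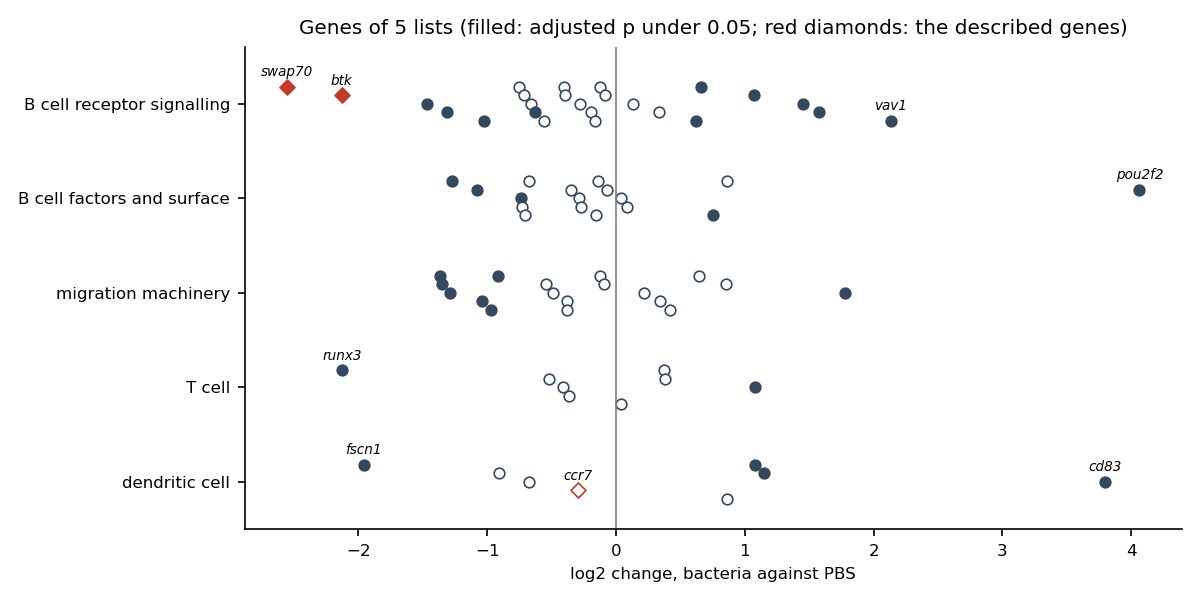
Log2 change with bacteria against PBS (x axis) of the tested genes of 5 lists (rows); filled symbols passed at an adjusted p under 0.05 and red diamonds are btk, swap70 and ccr7. In B cell receptor signalling swap70 and btk are the lowest of 25 genes, and vav1 at 2.13 is the highest.

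The same lists were counted in co-treatment against nitrite. In B cell receptor signalling 4 of 23 genes rose and 3 fell, among B cell factors and surface genes 2 of 17 rose and 3 fell, and in the migration machinery 2 of 18 rose and 7 fell, where 10.6% of all genes rose and 23.3% fell. With the replicate block 6 rose and 5 fell in the first list, 3 and 7 in the second and 3 and 9 in the third (all genes 14.7% and 36.2%), and the B cell marker pax5 fell (adjusted p = 0.0234 in limma's test, and 0.17 without the block). With median-ratio scaling 6 rose and 1 fell, 4 and 3, and 3 and 1 (all genes 17.1% and 12.5%). In the migration list 2 fell when nitrite replicate 1 or co-treatment replicate 3 was left out. In the signalling list 1 fell when bacteria replicate 2 or 3 or any 1 nitrite or co-treatment library was left out. With nitrite alone against PBS none of the genes on these lists passed in limma's test.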

How the data were processed

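Per the file headers the authors deposited FPKM values for 58070 transcripts in 12 libraries, to 2 decimals. The submitters' processing notes name Trimmomatic 0.30, HISAT2 2.0.1 and HTSeq 0.6.1, with no role; how the FPKM were computed, on which build and annotation, is not given in the sources used here. Transcripts were summed per trimmed symbol (18784 symbols were unnamed LOC identifiers), and log2(FPKM + 1) was tested for the 12423 genes whose mean reached 1 FPKM. Fold changes refer to that scale, which understates the change of low genes.

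The 12 libraries entered 1 fit in limma 3.58.1 under R 4.3.3 (mean-variance trend, 8 residual degrees of freedom), with Benjamini-Hochberg adjustment over all tested genes at a threshold of 0.05. The script was tested on simulated data, in which the fit without the block met no differences between replicate numbers. That test therefore does not cover how such differences affect the main fit. No 2 libraries were identical. Replicate numbers come from the titles: the deviations from the group means correlated over genes in all 18 same-number pairs (r = 0.42 to 0.92), and the highest r of any other pair was -0.0044. The numbers were therefore taken as pairs for the changes within numbers. The main fit has no block, so its SE, p-values and intervals also carry the differences between numbers. With bacteria against PBS the SE without and with the block was 0.354 and 0.151 for ccr7 and 0.450 and 0.281 for cxcr4. It was 0.375 and 0.226 for cxcr5, 0.324 and 0.259 for swap70, and 0.221 and 0.220 for btk. The blocked value is given where it changes a call of the members or of a list the text counts.

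As alternatives the pseudocount was set to 0.1 or 3, the filter was dropped or raised to 5 FPKM, libraries were scaled by median ratio or quantiles, and further fits used the highest transcript per symbol, the replicate block, and each library left out. The block with median-ratio scaling was added after the data were seen. The members and gene lists were chosen with earlier results of these data known. Named genes are the members, the 3 nearest genes of each and, per list, up to 6 genes by adjusted p with bacteria; syk, plcg2, def6, tec and itk were named after their values were seen. List counts leave the members out.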

Additional observations from a re-analysis of the deposited data

How the results depend on the processing

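The 12 called changes of btk, swap70, cxcr4 and cxcr5 kept their sign in all 252 values computed under alternatives and their call in 233. The 19 lost calls were of cxcr4 and cxcr5. The number of the 5 genes called with bacteria was 3 or 4 over all alternatives, and 3 to 5 in co-treatment against PBS and against nitrite; with the replicate block ccr7 was the fifth. The block changed no other call of the 5 genes, and no gene of the 5 was called in any alternative with nitrite alone, between co-treatment and bacteria, or in the interaction. ccr7 has a mean under 5 FPKM and gave no value at that minimum.

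Among uncalled changes 19 of 372 values changed sign. With bacteria, ccr7 was 0.069 with quantile normalization. The cause was not tested. When single libraries were left out, the values with nitrite alone ran from -0.84 to 0.12 for cxcr4, -0.53 to 0.12 for cxcr5 and -0.33 to 0.062 for btk. Those of co-treatment against bacteria ran from -0.072 to 0.18 for btk, -0.36 to 0.14 for ccr7 and -0.034 to 0.53 for swap70, and those of the interaction from -0.30 to 0.66 for cxcr4, -0.44 to 0.21 for cxcr5 and -0.17 to 0.40 for swap70.

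Counts of all genes called in co-treatment against nitrite were 4206 without and 6329 with the replicate block. In co-treatment against bacteria 1 gene was called, and 5 without the filter, 4 with the block and 4 with the block and median-ratio scaling. For these counts the cause was not tested. How depth limits each gene was not measured, since the values carry no counts.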

Other observations

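ackr4, which in mammals encodes a scavenging receptor that removes the ligands of CCR7, lay under the mean minimum of 1 FPKM and did not enter the test. It had 0.51, 0.89 and 1.44 FPKM in PBS replicates 1 to 3, 2.96, 1.37 and 0.84 with nitrite, 0.08, 0.08 and 0.02 with bacteria, and 0.19, 0.20 and 0.02 with co-treatment.

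A pair of T cell genes, picked after their values were seen, separated the libraries of replicate 3 from the others; differences between numbers were called for 29.3% of all genes tested. cd3e, a chain of the T cell receptor complex, was at 0 to 0.03 FPKM in the replicate 3 library of all 4 groups and at 0.72 to 3.52 in the other 8 libraries. The T cell kinase lck went the other way, with 2.88 to 3.95 FPKM in the replicate 3 libraries and 0.73 to 2.64 in the others.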
